A study of Mus musculus with 7 samples.

Results

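Bile acid transport and binding was examined through 10 genes in single-cell RNA libraries of mouse liver: Slc10a1, Slco1a1 and Slco1b2 (uptake), Baat (conjugation), Fabp6 (intracellular binding), Abcb11, Abcb4 and Abcc2 (export into bile), and Nr1h4 and Nr0b2 (sensing). They are 10 of the 32285 genes counted in each of 7 libraries, and they were selected on their levels in earlier work with these same libraries, so the order of libraries seen for them is a description and was not tested. The study compared tumors of ABC-Myc mice with healthy livers. In these mice Cre under the albumin promoter switches on a human MYC transgene in albumin-expressing cells from fetal life, in the C57BL/6J strain, and littermates lacking a transgene served as controls. In the study's text the tumors are NEJ634, NEJ687, NEJ709 and NEJ723, beside 3 normal livers. The labels call all 7 libraries liver tissue of a hepatoblastoma murine model and give no strain, age, treatment or group, so each library stands for itself here and no library was treated as a replicate of another.

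Bile acids are made from cholesterol in hepatocytes, joined to taurine or glycine, pumped across the canalicular membrane into bile and taken up again, first by the ileum and then by hepatocytes from portal blood. The nuclear receptor FXR, the product of Nr1h4, senses bile acids in hepatocytes and ileal cells. It raises export and, through the repressor SHP (Nr0b2), lowers synthesis. Fabp6 encodes the ileal bile acid-binding protein, a cytosolic carrier known mainly from the small intestine.

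Fabp6, Abcb11 and Nr0b2 are textbook FXR targets, and their levels ordered the libraries differently, so the 250 bases before their annotated starts are shown. Windows were taken from RefSeq (GRCm38.p6) and found for 9 of the 10 genes, all but Baat. They are written on the strand of the gene, in lower case, with capitals for the letters GGTNANTNACC, an inverted repeat of the kind FXR binds as a heterodimer. This motif equals its own reverse complement, and it was chosen after the Fabp6 window had been seen.
Fabp6, chr11:43601563-43601812, minus strand: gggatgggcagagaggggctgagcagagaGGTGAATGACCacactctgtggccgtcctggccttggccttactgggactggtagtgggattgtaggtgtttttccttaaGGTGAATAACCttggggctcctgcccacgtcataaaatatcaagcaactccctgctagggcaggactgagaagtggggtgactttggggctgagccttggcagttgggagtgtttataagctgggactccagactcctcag
Abcb11, chr2:69342617-69342866, minus strand: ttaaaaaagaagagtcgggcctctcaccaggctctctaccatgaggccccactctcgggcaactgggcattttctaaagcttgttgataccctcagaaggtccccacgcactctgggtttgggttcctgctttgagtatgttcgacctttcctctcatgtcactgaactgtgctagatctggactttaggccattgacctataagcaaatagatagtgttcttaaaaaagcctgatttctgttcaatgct
Nr0b2, chr4:133553126-133553375, plus strand: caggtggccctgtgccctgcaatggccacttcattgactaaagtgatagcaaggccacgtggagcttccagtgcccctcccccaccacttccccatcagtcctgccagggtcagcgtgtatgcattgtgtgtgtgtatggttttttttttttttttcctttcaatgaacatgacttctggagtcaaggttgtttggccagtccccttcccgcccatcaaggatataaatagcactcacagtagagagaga
The Fabp6 window held 2 matches, GGTGAATGACC starting 221 bases and GGTGAATAACC starting 141 bases before the start. No exact match to these letters lay in the windows of the other 8 genes, which does not show that they lack an FXR site. The Abcb11 window holds ggccattgacc, which departs from these letters only by a c in place of the T of GGTNA. Of all 32851 windows of this length in the table, 72 (0.219%) held the motif. Because the motif was chosen on the Fabp6 window, this share is no test of the Fabp6 matches. Letters of sites for the hepatocyte factors HNF1 (GTTAATNATTAAC, 0.00913% of windows) and HNF4 (CAAAGTCCA, 0.384%) were also searched on both strands and had no match in the windows of the 9 genes. A match is a description of the letters and says nothing about binding in these cells.

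Levels are UMIs (unique molecular identifiers, tags that mark single captured transcripts) of a gene per 1000000 UMIs of a pool of cells (CPM). Exact 95% Poisson intervals stand in parentheses and cover counting error only. Libraries held 40214395 to 132485391 UMIs, and 72515 cells were analysed after calling, quality limits and doublet removal. They fell into 56 clusters, and 4008 cells were hepatocyte-lineage-like by marker genes that exclude the 10 genes. NEJ634 held 2122 of these cells, NEJ687 149, NEJ638 317, NEJ654 489 and NEJ677 914, while NEJ709 held 9 and NEJ723 8, too few for a level. All 18 hepatocyte-lineage markers were detected in each of the 5 pools, and their summed level was 34959 CPM in NEJ634 and 39874 CPM in NEJ687, against 74102 to 130180 CPM in the other 3. Afp, the fetal albumin-like protein, was at 2649 CPM in NEJ634 and 1668 CPM in NEJ687 and at 1.9 to 9.26 CPM in NEJ638, NEJ654 and NEJ677. The pool also held a summed 2834 CPM of neutrophil markers in NEJ634, against 22.6 to 212 CPM in the others, and 2633 to 11392 CPM of erythroid markers over the 5 pools. The part of these other transcripts in any level below was not tested. Of the analysed cells, 1805 (2.49%) carried a barcode that was also a cell of another library, including 33 of the hepatocyte-lineage-like cells of NEJ634 and 3 to 23 in the other 4 pools, and leaving them out kept every member level within its interval. Of the 50 levels of a member in a pool, 41 were at least 2-fold above the cell-free barcodes of the same library.

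The class was made of different clusters in different libraries. Cluster 12 supplied 2009 of the cells of NEJ634 and 143 of those of NEJ687. Cluster 30 supplied 298 cells of NEJ638, 250 of NEJ654 and 124 of NEJ677, and cluster 24 supplied 238 cells of NEJ654 and 790 of NEJ677. Cells of cluster 24 were shallow, with a median of 896.5 UMIs in NEJ654 and 1651.5 in NEJ677, and had Alb at 5266 and 3654 CPM, against 78708 and 72964 CPM in cluster 30 of the same libraries. Mitochondrial UMIs were 1.66% and 1.26% of cluster 24 in NEJ654 and NEJ677, and 6.45% and 7.53% of cluster 30. The part of depth and mitochondrial share in the differences between these clusters was not tested. Levels of NEJ654 and NEJ677 are therefore mixtures of these clusters and are given for each below. In cluster 24 of NEJ677, Slc10a1, Slco1a1, Slco1b2, Abcb11, Abcb4 and Abcc2 lay below the cell-free barcodes of that library. Slco1b2, for instance, was at 35.5 against 134 CPM. In NEJ654, Slco1b2 (53.3 against 109 CPM) and Abcc2 (22.5 against 47.8 CPM) lay below, and Slc10a1, Slco1a1, Abcb11 and Abcb4 overlapped. Baat, Nr1h4 and Nr0b2 exceeded the cell-free barcodes in cluster 24 of NEJ654 and of NEJ677.

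The members did not move as a group. Slco1a1, Slco1b2 and Baat were each at least 2-fold higher in NEJ638, NEJ654 and NEJ677 than in NEJ634 and NEJ687, 3 of 10 genes, where 7.34% of the 8968 genes reaching 10 CPM in a pool showed that order. Fabp6 showed the opposite order, 1 of 10, against 9.8% of those genes. It no longer did when cells were classed singly by their marker share, which brought in 242 cells of NEJ723. The remaining 6 genes, among them all 3 exporters and both sensors, met neither rule. These counts describe the contrast on which the genes were chosen.

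**Figure D1:**
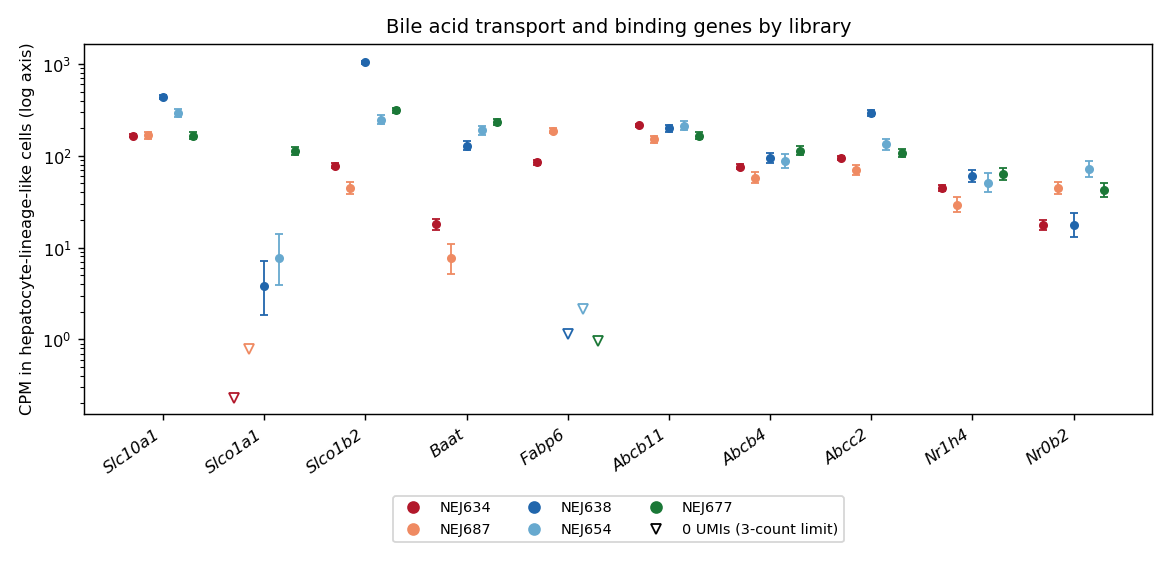
Level of each gene (CPM, log axis) in the hepatocyte-lineage-like cells of 5 libraries. Points are pooled levels with exact 95% Poisson intervals, and open triangles mark the 3-count limit of a library with 0 UMIs. Fabp6 is seen in NEJ634 and NEJ687 alone, Slco1a1 in NEJ638, NEJ654 and NEJ677 alone, and Abcb11 lies between 151 and 215 CPM in all 5.

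Among the uptake carriers, Slc10a1 encodes the sodium-dependent bile acid carrier of the blood-facing membrane (chr12:80953183-80968705, minus strand, GENCODE M21 on GRCm38, as for all gene positions here). Its level was 166 CPM (159 to 173) in NEJ634, 167 (154 to 180.3) in NEJ687, 436 (411 to 462) in NEJ638, 292 (265 to 322) in NEJ654 and 165 (151 to 179.8) in NEJ677. NEJ638 and NEJ654 stood apart from each other and above the remaining 3 libraries, whose intervals overlapped. Within NEJ677, Slc10a1 was at 495 CPM (450.4 to 542) in cluster 30 and at 27.4 CPM (20.98 to 35.2) in cluster 24, so its place beside the libraries of low level was set by cluster 24. With cluster 24 left out, Slc10a1 was at least 2-fold higher in NEJ638, NEJ654 and NEJ677 than in NEJ634 and NEJ687.

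Slco1b2, an organic anion transporter that carries unconjugated bile acids and bilirubin (chr6:141629518-141686646, plus strand), was at 77.4 CPM (72.7 to 82.4) in NEJ634, 45.0 (38.5 to 52.3) in NEJ687, 1043 (1004 to 1083) in NEJ638, 248 (222 to 275) in NEJ654 and 315 (295 to 335) in NEJ677. No intervals overlapped, and the lowest of the 3 higher libraries was 3.2 times the highest of the 2 lower ones. This held for the pools and not for cluster 24, where Slco1b2 was at 53.3 CPM (34.8 to 78.1) in NEJ654 and 35.5 CPM (28.1 to 44.3) in NEJ677. In cluster 30 it was at 351 CPM (314 to 391) in NEJ654 and 984 CPM (921 to 1050) in NEJ677, whose interval overlapped that of NEJ638, 1062 CPM (1022 to 1103). Slco1a1, a related carrier on the same chromosome (chr6:141907282-141946962, minus strand), had 0 UMIs in NEJ634 and NEJ687. By the limit of 3 counts this allows up to 0.232 and 0.794 CPM (exact upper bounds of 0.286 and 0.976 CPM). Slco1a1 was at 3.86 CPM (1.85 to 7.09) in NEJ638, 7.79 (3.89 to 13.9) in NEJ654 and 113 (101 to 125) in NEJ677. The level of NEJ654 did not exceed that of its cell-free barcodes, 9.36 CPM, and as a mean over cells it was 2.15 CPM. Slco1a1 is known for higher levels in male than in female mouse liver. Beside it, the summed level of 4 Y-linked genes in the same pools was 100.3 CPM in NEJ677 and 93.2 CPM in NEJ687 and at most 0.0774 CPM in the other 3, and Xist was at 357 to 705 CPM in those 3 and at 0 in NEJ687 and 0.317 CPM in NEJ677. Their part in the Slco1a1 levels was not tested.

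Baat joins bile acids to taurine and glycine (chr4:49489422-49506557, minus strand). It was at 17.9 CPM (15.7 to 20.3) in NEJ634, 7.68 (5.14 to 11.0) in NEJ687, 129 (115 to 143) in NEJ638, 189 (167 to 213) in NEJ654 and 235 (218 to 253) in NEJ677. The 2 sets of libraries were separated by 7.2-fold at their nearest points. In NEJ687 the level overlapped that of the cell-free barcodes, 4.06 CPM (2.22 to 6.81), and 9 of the 29 UMIs were in 1 cell, without which it was 5.35 CPM (3.27 to 8.26). As a mean over cells, in which shallow cells weigh as much as deep ones, Baat in NEJ687 was at 17.3 CPM. Unlike the carriers, Baat was higher in the shallow cluster 24, 285 CPM (239 to 336) in NEJ654 and 273 CPM (252 to 296) in NEJ677, than in cluster 30 of the same libraries, 139 CPM (116 to 165) and 144 CPM (121 to 171).

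Fabp6 (chr11:43596049-43601540, minus strand) was at 84.7 CPM (79.8 to 89.9) in NEJ634 and 188 CPM (175 to 203) in NEJ687. NEJ638, NEJ654 and NEJ677 had 0 UMIs, which by the limit of 3 counts allows up to 1.16, 2.12 and 0.952 CPM. The exact upper bounds were 1.42, 2.61 and 1.17 CPM. The lower of the detected levels was 39.9 times the widest 3-count limit. That fold is 20.1 when the highest cell of each library, described below, is left out. Barcodes ranked as cell-free, which may include shallow cells, held Fabp6 at 32.6 CPM in NEJ634 and 18.9 CPM in NEJ687, less than in the cells. In the cell-free barcodes of NEJ638 it was at 3.35 CPM, and at 0.211 CPM once barcodes that are cells of another library were left out.

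The Fabp6 level came from few cells. In NEJ634, 275 of 2122 cells (12.96%) held its 1094 UMIs, where 33.6% would have held at least 1 had they been spread in proportion to depth. The 212 cells with most Fabp6 held 94.2% of them, while the 212 deepest cells held 38.8% of all UMIs. That 38.8% is not what an even spread would give, since ranking cells by a sparse count raises the share. In the same way the share was 66.8% for Slco1b2, with 1000 UMIs, and 100% for Baat, with 231 UMIs. Baat was seen in 8.01% of cells against 9.63% for an even spread. In NEJ687, 18 of 149 cells held 712 UMIs, and 552 of these came from a single cell of 33444 UMIs. Without that cell the level of NEJ687 fell to 42.7 CPM (36.4 to 49.9), below that of NEJ634 without its own highest cell, 79.2 CPM (74.5 to 84.2), so the order of NEJ634 and NEJ687 rests on 1 cell. Both remained above the limits of the other 3 libraries, at most 2.12 CPM. Poisson intervals do not cover such unevenness between cells. Abcb11 in the same NEJ687 cells was spread almost evenly, with a UMI in 128 of 149 cells (85.9%) against 87.4% for an even spread.

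Shares of cells were compared after each cell had been thinned to 1000 UMIs, with exact 95% Clopper-Pearson intervals. Fabp6 was then seen in 4.9% (4.02 to 5.91) of 2122 cells of NEJ634 and 6.29% (2.92 to 11.6) of 143 cells of NEJ687, and in 0 of 291, 294 and 639 cells of NEJ638, NEJ654 and NEJ677, which by the limit of 3 counts allows shares of up to 1.03%, 1.02% and 0.469% (exact upper bounds of 1.26%, 1.25% and 0.576%). Shallower cells were left out, 6 in NEJ687, 26 in NEJ638, 195 in NEJ654, 275 in NEJ677 and 0 in NEJ634. Without thinning the shares were 12.96% in NEJ634 and 12.1% in NEJ687. T/NK-like cells, which should lack the gene, showed Fabp6 in 1 of 102 thinned cells of NEJ634 (0.98%, 0.0248 to 5.34) and in none of 333 in NEJ687, at median depths of 5077 and 3857.5 UMIs against 3835.5 and 24110 UMIs in the hepatocyte-lineage-like cells. The 2 intervals of NEJ634 overlapped. Abcb11 was seen in 18.0% of thinned hepatocyte-lineage-like cells of NEJ634, 16.8% of NEJ687, 19.9% of NEJ638, 16.3% of NEJ654 and 8.45% of NEJ677, and the interval of NEJ677 (6.41 to 10.9) lay below those of the other 4.

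**Figure D2:**
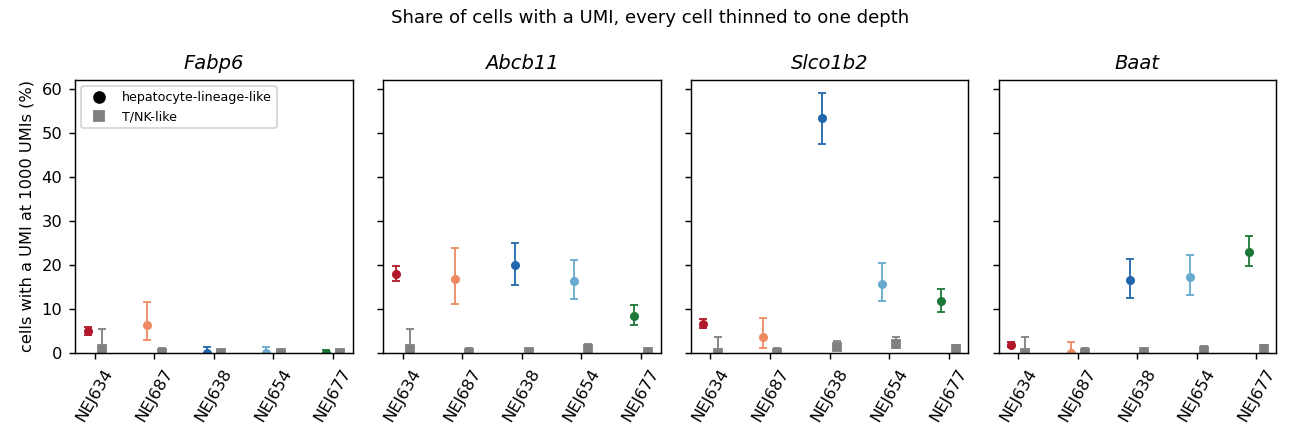
Percent of cells with a UMI of 4 genes after thinning to 1000 UMIs per cell, in hepatocyte-lineage-like cells (colored circles) and T/NK-like cells (grey squares) of 5 libraries, with exact 95% Clopper-Pearson intervals. Fabp6 reaches 4.9% and 6.29% in NEJ634 and NEJ687 and 0 elsewhere, and Slco1b2 reaches 53.3% in NEJ638.

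Fabp6 also differed between clusters of NEJ634. It was at 88.6 CPM (83.4 to 93.99) in cluster 12 and at 2.3 CPM (1 UMI, 0.0582 to 12.8) in cluster 46, a set of 83 cells. Cluster 46 instead had Slco1b2 at 345 CPM (292 to 405), against 65.4 CPM (61.0 to 70.1) in cluster 12, and Baat at 71.3 CPM (48.4 to 101), against 14.4 CPM (12.4 to 16.7). Cyp7a1, the rate-limiting enzyme of bile acid synthesis, was at 172 CPM (136 to 216) in cluster 46 and 12.3 CPM (10.4 to 14.4) in cluster 12, and Alb at 10146 and 4805 CPM. Slco1a1 had no UMI in either. At the higher clustering resolution NEJ634 had a pair of large hepatocyte-lineage-like clusters, with Fabp6 at 66.2 CPM (60.7 to 72.0) in 874 cells and at 181 CPM (168 to 195) in 925 cells. Abcb11 was at 226 and 183 CPM in the same cells. Fabp6 itself had been left out of the clustering.

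Export into bile is served by Abcb11, the bile salt export pump (chr2:69238282-69342616, minus strand), Abcb4, which moves phosphatidylcholine into bile (chr5:8893717-8959231, plus strand), and Abcc2, which exports conjugated bilirubin and other organic anions (chr19:43782192-43840740, plus strand). Abcb11 was at 215 CPM (207 to 223) in NEJ634, 151 (139 to 164) in NEJ687, 199 (182 to 217) in NEJ638, 213 (189.6 to 239) in NEJ654 and 165 (151 to 180.1) in NEJ677. In these pooled levels the 2 sets of libraries interleaved, and the highest level was 1.42 times the lowest. As a mean over cells the level of NEJ677 was lower, as given under processing below. Here too the clusters differed, with Abcb11 at 509 CPM (464 to 557) in cluster 30 of NEJ677 and 22.0 CPM (16.3 to 29.1) in its cluster 24. In cluster 30 it was at 203 CPM (186 to 221) in NEJ638 and 311 CPM (276 to 349) in NEJ654, so that NEJ654 and NEJ677 stood above the 212 CPM (204 to 221) of cluster 12 in NEJ634, and NEJ638 did not.

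Abcc2 was at 95.01 CPM (89.8 to 100.5) in NEJ634, 69.6 (61.5 to 78.6) in NEJ687, 295 (275 to 317) in NEJ638, 133 (115 to 153) in NEJ654 and 108 (96.4 to 119.6) in NEJ677. NEJ638 stood above all others, while NEJ677 and NEJ634 overlapped. In cluster 30 Abcc2 was at 192 to 305 CPM over the 3 libraries, and in cluster 24 at 22.5 and 25.2 CPM. With cluster 24 left out, Abcc2 was at least 2-fold higher in NEJ638, NEJ654 and NEJ677 than in NEJ634 and NEJ687. Abcb4 was at 75.6 CPM (70.9 to 80.5) in NEJ634, 58.0 (50.5 to 66.2) in NEJ687, 94.5 (83.04 to 107) in NEJ638, 87.8 (73.0 to 105) in NEJ654 and 114 (102 to 126) in NEJ677. Its range over libraries was 1.96-fold, with NEJ687 lowest and the intervals of NEJ634 and NEJ654 overlapping. Abcb4 too differed between clusters, at 22.5 CPM (11.3 to 40.3) in cluster 24 and 122 CPM (101 to 147) in cluster 30 of NEJ654, and at 38.7 CPM (30.9 to 47.8) and 294 CPM (260.3 to 331) in those of NEJ677. Cell-free barcodes held Abcb4 at 38.8 CPM in NEJ634, 54.8 in NEJ687, 17.7 in NEJ638, 34.6 in NEJ654 and 54.1 in NEJ677, and the level of NEJ687 overlapped that of its cell-free barcodes. After thinning to 1000 UMIs, Abcb4 was seen in 6.29% (2.92 to 11.6) of these cells of NEJ687 and in 0.601% (0.0728 to 2.15) of its T/NK-like cells.

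Both sensors were detected in all 5 pools. Nr1h4 (chr10:89454234-89533585, minus strand) was at 44.6 CPM (41.0 to 48.4) in NEJ634, 29.4 (24.2 to 35.4) in NEJ687, 60.6 (51.5 to 70.8) in NEJ638, 51.0 (39.9 to 64.2) in NEJ654 and 63.5 (55.0 to 72.9) in NEJ677. Only NEJ687 lay clear of every other library, and NEJ634 overlapped NEJ654. The highest level was 2.16 times the lowest. Nr0b2 (chr4:133553376-133556536, plus strand) was at 17.7 CPM (15.4 to 20.1) in NEJ634, 44.7 (38.2 to 52.0) in NEJ687, 17.7 (12.99 to 23.7) in NEJ638, 71.5 (58.2 to 86.9) in NEJ654 and 42.2 (35.3 to 50.01) in NEJ677. NEJ634 and NEJ638 were low together, and NEJ687 and NEJ677 overlapped, so Nr0b2 followed neither set of libraries. Nr1h4 was alike in both clusters of NEJ677 within their intervals, 48.5 CPM (35.4 to 64.9) in cluster 30 and 69.7 CPM (59.2 to 81.6) in cluster 24, which was not so for any of the carriers or exporters.

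**Figure D3:**
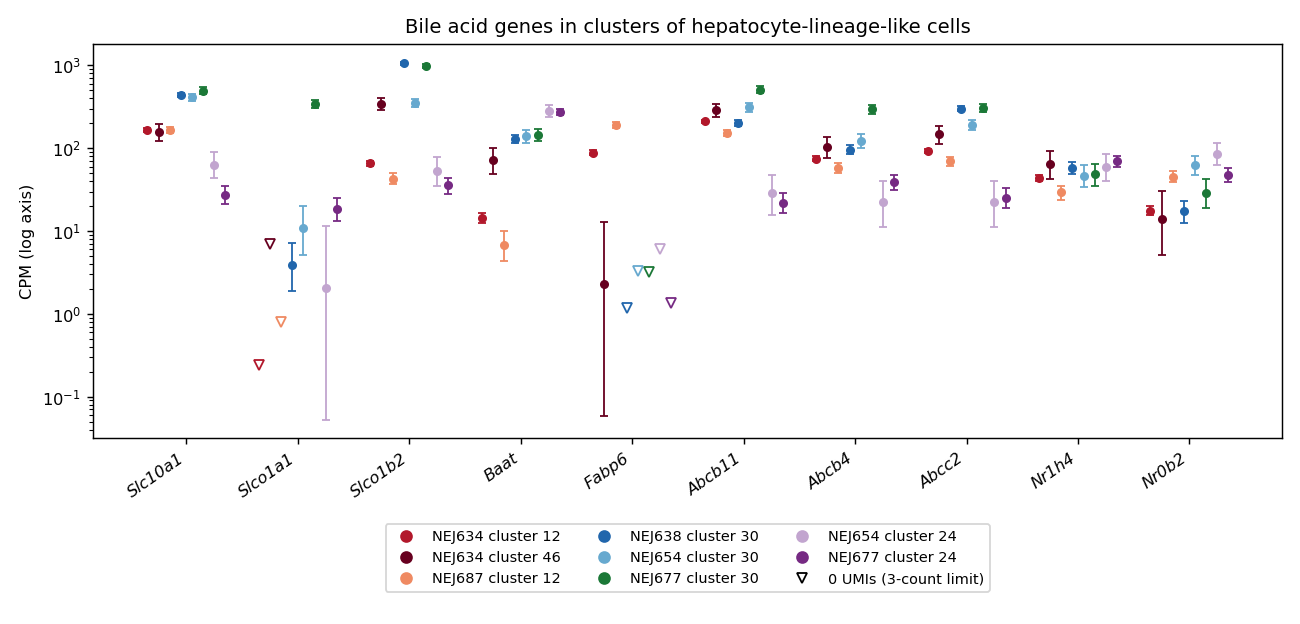
Level of each gene (CPM, log axis) in the main clusters of hepatocyte-lineage-like cells, by library, with exact 95% Poisson intervals. Open triangles mark the 3-count limit where no UMI was counted. In cluster 24 Slc10a1, Slco1b2, Abcb11 and Abcc2 lie below cluster 30 of the same library while Baat lies above it, and cluster 46 of NEJ634 lies apart from its cluster 12 in Slco1b2, Baat and Fabp6.

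Clusters 17 and 41 lay between the hepatocyte-lineage and epithelial marker lists and were left unnamed, and NEJ723 supplied most of their cells. Leading genes of both clusters included Cldn7, an epithelial junction gene, the keratin genes Krt8 and Krt18, and Apoa4. Those of cluster 17 also included Igf2, and those of cluster 41 Afp. Over these clusters Afp was at 1932 CPM in NEJ723, 1991 in NEJ709, 9275 in NEJ634 and 1107 in NEJ687. In the hepatocyte-lineage-like cells of NEJ687 it was at 1668 CPM. Clusters 17 and 41 were not part of the pools in which libraries were ordered. The 1638 such cells of NEJ723 were 1463 shallow cells of cluster 17, with a median of 921 UMIs, and 175 deep cells of cluster 41, with a median of 55029 UMIs, which held 408 of the 451 Abcc2 UMIs. In cluster 41, Alb was at 1971 CPM, Abcc2 at 36.0 CPM (32.6 to 39.7) and Nr1h4 at 14.4 CPM (12.3 to 16.8), against 13.9 and 5.63 CPM of Abcc2 and Nr1h4 in the cell-free barcodes of NEJ723. Slc10a1 was at 6.18 CPM (4.82 to 7.81) and Abcb11 at 2.82 CPM (1.93 to 3.99) in cluster 41, where the cell-free barcodes held 6.86 and 7.61 CPM, and neither exceeded them. Baat was at 3.35 CPM (2.37 to 4.6) against 2.06 CPM in cell-free barcodes, with overlapping intervals, and Fabp6 and Slco1a1 had 0 UMIs. In cluster 17, Abcc2 was at 17.9 CPM (12.9 to 24.1), which overlapped the interval of the cell-free barcodes (12.1 to 15.98), as did Slc10a1 at 8.73 CPM (5.41 to 13.4) and Abcb11 at 6.24 CPM (3.49 to 10.3) with theirs. In NEJ709, 73 such cells had Abcc2 at 31.7 CPM (21.2 to 45.5), against 3.87 CPM in its cell-free barcodes, and Abcb11 at 1.09 CPM (1 UMI, 0.0277 to 6.09). However, 45 of the 73 carried a barcode that was also a cell of another library, and in the 28 others Abcc2 was at 26.4 CPM (6 UMIs, 9.69 to 57.5), whose interval overlapped that of the cell-free barcodes (1.054 to 9.9). In NEJ723, 68 of the 1638 cells shared a barcode, and without them Abcc2 over both clusters was at 33.2 CPM (29.6 to 37.1). In NEJ634, 65 such cells had Abcc2 at 87.0 CPM (59.1 to 123), against 26.8 CPM (24.9 to 28.9) in its cell-free barcodes. The 63 without a shared barcode had Abcc2 at 53.0 CPM (13 UMIs, 28.2 to 90.6), whose interval overlapped the cell-free one. Abcb11 was at 39.3 CPM (21.5 to 65.9) in the 65 cells, against 60.2 CPM (57.3 to 63.3) in cell-free barcodes. The 168 cells of NEJ687 were shallow, with a median of 675.5 UMIs, and held 10 UMIs of Abcb11 (60.8 CPM, 29.2 to 112) and 6 of Fabp6 (36.5 CPM, 13.4 to 79.4), and their intervals overlapped those of the cell-free barcodes, at 23.5 and 18.9 CPM. Slc10a1 in the same cells was at 79.1 CPM (13 UMIs, 42.1 to 135), above the 24.7 CPM (19.7 to 30.5) of the cell-free barcodes.

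Most members were higher in hepatocyte-lineage-like cells than in the other cells of a library. The genes were chosen with earlier results of these data known, so the counts here are a description. Against all other analysed cells of the same library, 8 members were at least 4-fold higher in hepatocyte-lineage-like cells of NEJ638, 8 in NEJ654, 9 in NEJ677 and 7 in NEJ687, where 13.7%, 11.7%, 13.1% and 16.3% of all genes reaching 10 CPM were. In NEJ634 the count was 3 of the 9 members that reached 10 CPM, against 2.06% of genes. The other cells of NEJ634 included 3645 cells of an unnamed cluster with hepatocyte genes. Against its named classes alone, 8 of those 9 members were at least 4-fold higher, where 8.86% of genes were, and Abcb4 was 2.1-fold higher. Abcb11 ranged from 4.62-fold (4.36 to 4.9) in NEJ634 to 160.3-fold (102 to 268) in NEJ638. Abcb4 was 14.2-fold (11.2 to 18.0), 9.51-fold (7.48 to 12.1) and 14.4-fold (12.03 to 17.3) higher in NEJ638, NEJ654 and NEJ677, and 1.51-fold (1.4 to 1.63) and 0.937-fold (0.813 to 1.08) in NEJ634 and NEJ687.

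Abcb4 was also seen in red cell precursors. In erythroid-like cells it was at 109 CPM in NEJ634, 89.2 in NEJ687, 141 in NEJ709 and 110 in NEJ723, against 14.5, 6.18 and 5.21 CPM in NEJ638, NEJ654 and NEJ677. The levels of the first 4 libraries exceeded those of their cell-free barcodes, 27.1 to 54.8 CPM. After thinning to 1000 UMIs, 7.81 to 9.73% of erythroid-like cells held an Abcb4 UMI in the first 4 libraries and 0.289 to 0.736% in the other 3, while at most 2.78% of B-like or T/NK-like cells of any library did. Haemoglobin made up 46.8 to 58.0% of UMIs in the first 4 pools and 82.0 to 91.7% in the other 3, and without haemoglobin UMIs the levels were 168 to 336 CPM and 62.9 to 80.4 CPM. The pools also held different clusters. The erythroid-like cells of NEJ638, NEJ654 and NEJ677 lay mainly in cluster 5, where Abcb4 was at 4.02 to 5.59 CPM, and those of NEJ687 and NEJ723 in clusters 2, 8, 9, 14, 20 and 23. Among those, Abcb4 in NEJ723 ran from 17.0 CPM (13.4 to 21.3) in cluster 9, at 76.3% haemoglobin, to 196 CPM (182 to 211) in cluster 23, at 35.8%. The part of cluster makeup in the difference between libraries was not tested.

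**Figure D4:**
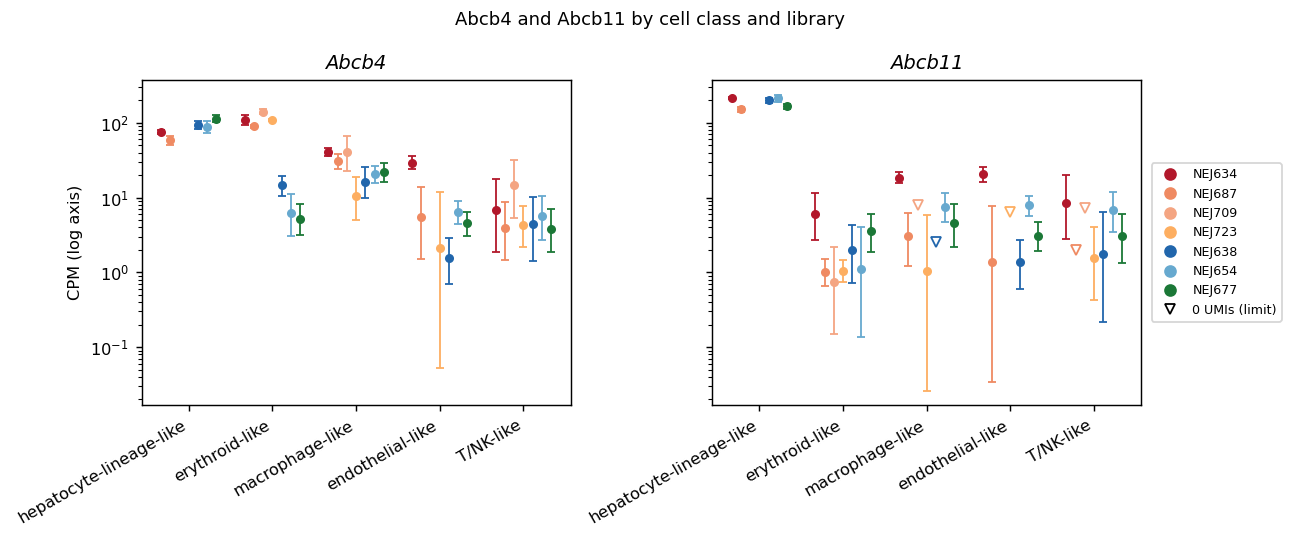
Level of Abcb4 and Abcb11 (CPM, log axis) in 5 cell classes of each library with at least 20 cells of the class, with exact 95% Poisson intervals and open triangles for the 3-count limit. Abcb4 in erythroid-like cells is at 89.2 to 141 CPM in NEJ634, NEJ687, NEJ709 and NEJ723 and at 5.21 to 14.5 CPM in the other 3, while Abcb11 stays high in hepatocyte-lineage-like cells alone.

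Nr1h4 was found outside hepatocyte-lineage-like cells as well. In mesenchymal-like cells, a class of stellate cells and fibroblasts, it was at 142 CPM (82.5 to 227) in NEJ638 from 17 UMIs in 36 cells and at 218 CPM (151 to 304) in NEJ654 from 34 UMIs in 77 cells. Both exceeded the hepatocyte-lineage-like cells of the same library, 60.6 and 51.0 CPM. In the mesenchymal-like cells of NEJ634 Nr1h4 had 0 UMIs in 27 cells, which allows up to 48.3 CPM, and in NEJ723 1 UMI in 21 cells (7.52 CPM, 0.19 to 41.9). NEJ687 and NEJ709 had 0 such cells, and NEJ677 had 19, too few for a level.

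The genes most like Fabp6 were sought over 65 pools of a named class in a library with at least 50 cells, among genes reaching 50 CPM in a pool, by Pearson r of log2(CPM + 1). The 5 highest were Slc51b (r = 0.843), Phlda2 (0.838), Amn (0.816), Akr1b7 (0.778) and Dusp9 (0.751). Slc51b encodes a subunit of the basolateral bile acid exporter, and Amn is part of a receptor complex of ileum and kidney. Slc51b was at 60.1 CPM in NEJ634, 72.5 in NEJ687, 10.8 in NEJ638, 5.66 in NEJ654 and 4.44 in NEJ677. It thus had UMIs in each library and the order seen for Fabp6. Slc51a, listed with Slc51b among genes of efflux at the blood side, was at no more than 0.708 CPM in any of these libraries. Those most like Abcb11 included Etnppl (0.884), Ndrg2 (0.881), Cyp2c23 (0.877) and Cbs (0.872). Cbs is an enzyme of cysteine synthesis. The pools share libraries and depth, so these values carry no test.

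A wider list of 60 genes of bile acid synthesis, transport, sensing and detoxification was set beside the members. Of these, 51 reached 10 CPM in a pool, 18 (35.3%) were at least 2-fold higher in all 3 of NEJ638, NEJ654 and NEJ677 than in NEJ634 and NEJ687, and 2 (3.92%) showed the reverse, beside 7.34% and 9.8% of all genes. All 4 other uptake genes, 6 of 9 synthesis genes, 2 of 8 genes of side-chain shortening and activation, 2 of 11 nuclear receptors and liver factors and 2 of 6 detoxification genes were among the 18. None of 7 genes of canalicular lipid and drug transport was. The 2 in the other direction were Slc51b and Abcb1a, a drug export pump.

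The 12 of these genes with the widest range over libraries were named, out of 14 that reached 50 CPM with a 10-fold range. Akr1c6, a hydroxysteroid dehydrogenase, was at 60.8 CPM in NEJ634 and 18.3 in NEJ687, against 1863, 1231 and 2232 in NEJ638, NEJ654 and NEJ677. Slc27a5, the ligase that activates bile acids before Baat acts, was at 36.4 and 23.3 CPM against 359, 468 and 271 CPM. Cyp2c70, which makes the muricholic acids of rodents, was at 38.2 and 23.3 CPM against 966, 219 and 201 CPM. The synthesis enzyme Cyp8b1, the uptake carriers Slco1a4 and Slc22a7, the basolateral exporter Abcc3 and the detoxification enzymes Cyp3a11 and Sult2a8 showed the same order. Cyp7a1 did not: it was at 284 CPM (264 to 305) in NEJ638 and at 18.7 (16.5 to 21.3) in NEJ634, 14.6 (10.7 to 19.5) in NEJ677, 11.3 (6.47 to 18.4) in NEJ654 and 4.5 (2.62 to 7.2) in NEJ687. Sult2a1, a sulfotransferase known for higher levels in female mouse liver, was at 165 CPM in NEJ634, 89.2 in NEJ687, 1653 in NEJ638 and 585 in NEJ654, and had 2 UMIs (0.635 CPM, 0.0769 to 2.29) in NEJ677. Abcb1a was at 47.2 CPM in NEJ634 and 60.4 in NEJ687, against 8.49, 2.83 and 0.952 CPM in NEJ638, NEJ654 and NEJ677.

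**Figure D5:**
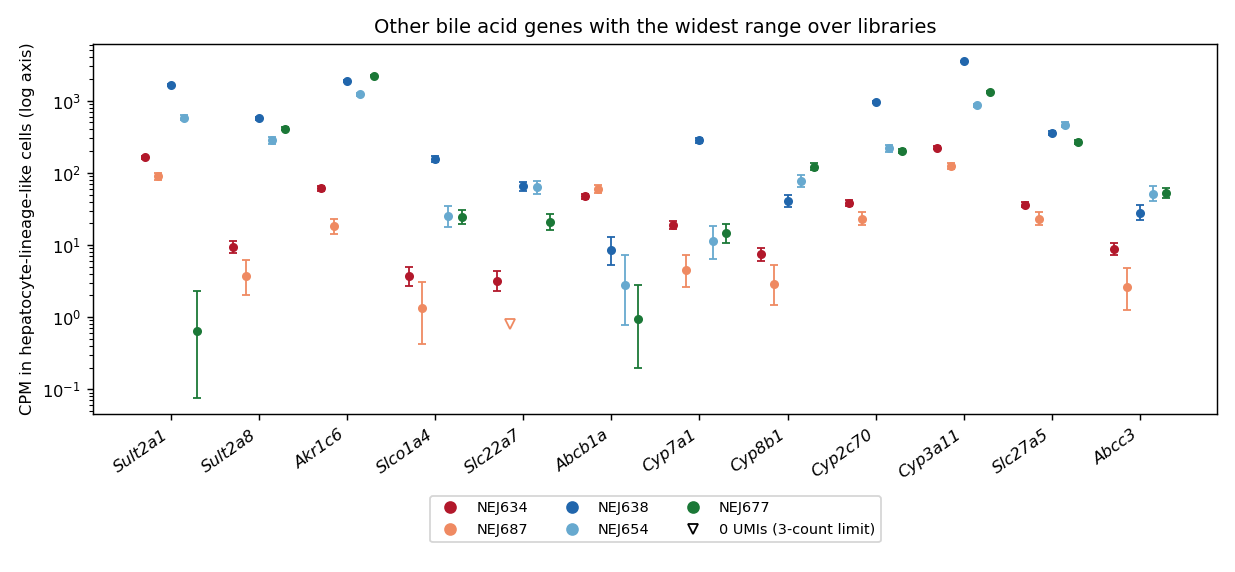
Level (CPM, log axis) of 12 further bile acid genes in hepatocyte-lineage-like cells of 5 libraries, chosen for their wide range, with exact 95% Poisson intervals and an open triangle for the 3-count limit. NEJ634 and NEJ687 lie lowest for Akr1c6, Sult2a8 and Slc27a5, NEJ677 lies lowest for Sult2a1, and Abcb1a runs the other way.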

How the data were processed

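The deposited matrices hold raw UMI counts per gene and barcode that the authors made with Cell Ranger, without a cell filter or normalization. The file headers name version 4, while the submitters' processing notes name version 6.0 and the study counted introns, so the run is not settled. The description of NEJ709 names NEJ634, and its title was used. The genome build is not given in the sources used here, and promoters and positions come from GRCm38 annotations. The study's liver tissue was dissociated by collagenase perfusion before droplet capture.

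The 10 genes, the marker lists and the wider list were chosen with earlier results of these data known. The labels gave 0 groups, so all 7 libraries stayed single and no test was run. Cells were called by a knee rule and a Monte Carlo test against barcodes ranked 45000 to 90000 (10000 draws, adjusted p 0.01), kept above 500 UMIs and at or below 20% mitochondrial UMIs, and cleared of simulated-doublet neighbours at 0.8% per 1000 cells, 8832 in all. Clusters (2000 variable genes without the listed genes, 40 components, 15 neighbours, Leiden resolution 1) were named from markers at a mean log2 fold of 1.5 and a lead of 1 over the next class, limits set with the data known. A cluster led by more markers of another class stayed unnamed, and 23782 cells were unnamed. Counts were summed per class and library as CPM, with a limit of 3 UMIs for a count of 0 and at least 20 cells. All members were named, with the 12 other genes of widest range and the 5 genes most like Fabp6 and Abcb11, of which 1 is not reported here. Cell calling, intervals and the order rule were checked on simulated data. Alternatives changed calling, doublets, clustering, class, total, cell weights, ambient subtraction, shared barcodes, thinning and folds. Python 3.11.15, numpy 2.4.6, scipy 1.17.1, scikit-learn 1.9.0 and igraph 0.11.9 were used.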

Additional observations from a re-analysis of the deposited data

Results flagged for a closer look

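Fabp6 was also found in barcodes that were not called as cells but held over 500 UMIs and at most 20% mitochondrial UMIs outside the ranks of the cell-free profile. In NEJ634, 22688 such barcodes held 778 Fabp6 UMIs, a level of 27.0 CPM (25.2 to 29.0). That was above the 3-count limit of 0.104 CPM and below the 32.6 CPM of its cell-free barcodes. In NEJ709, 10312 such barcodes held 57 Fabp6 UMIs, a level of 4.06 CPM (3.07 to 5.26), above the limit of 0.214 CPM, where its cell-free barcodes, with 2 UMIs, were at 1.93 CPM (0.234 to 6.99), an interval that holds 4.06 CPM, and at 3.1 CPM once barcodes called in another library were left out. These barcodes entered no comparison.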

How the results depend on the processing

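Of the processing alternatives run, those on calling, depth, doublets, clustering, class rule, total, cell weights, ambient subtraction and shared barcodes left the count of members at least 2-fold higher in NEJ638, NEJ654 and NEJ677 at 3. It was 6 with a 1-fold order (21.6% of all genes tested), which adds Abcb4, Abcc2 and Nr1h4 by the order alone, 2 with a 4-fold order (3.23%), and 5 without cluster 24 (8.19%), where Slc10a1 and Abcc2 joined. That last choice, a naming lead of 0.5, leaving out the cell of most Fabp6 UMIs, comparison with named classes only and the clusters 17 and 41 without shared barcodes were added after seeing the data. When cells were classed singly by their marker share, 242 cells of NEJ723 entered, and Fabp6 no longer met the opposite order. The count of members at least 4-fold above other cells was 35 of 42 member and library pairs tested over the 5 libraries, where 11.4% of all genes tested were called. It stayed between 30 with a 10-fold limit (6.96%) and 42 with cells classed singly (11.1%). That 42 was out of 47 pairs tested, and 4 of the 42 were in NEJ723. The count was 40 with a 2-fold limit (21.9%) and 40 against named classes only (13.8%). Of 50 member levels, 8 moved by over 1.5 times as a mean over cells. Baat in NEJ687 became 17.3 CPM in place of 7.68 CPM, Slco1a1 and Slc10a1 in NEJ654 became 2.15 and 189 CPM, and in NEJ677 Slc10a1 became 85.6, Slco1a1 66.1, Slco1b2 190.3, Abcb11 86.0 and Abcc2 67.3 CPM. Without cluster 24, 7 levels of NEJ677 moved as far, to 495, 338, 984, 509 and 305 CPM for the same 5 genes, 294 for Abcb4 and 144 for Baat. Fabp6 in NEJ687 did so without its highest cell. No level did so under the other alternatives. With no doublets removed the class held 7103 cells of NEJ634 in place of 2122, and 13 of the 50 levels left their intervals. Doublet removal had taken 3295 barcodes of NEJ634, so returned barcodes alone do not make up the increase. The 7103 included 4740 cells of a cluster that passed the naming lead in that run, with scores of 2.74 and 1.64. Its leading genes included H19, Afp, Ngp and Hamp, as did those of the unnamed cluster of NEJ634 described below.

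Calling was limited to 20000 tested barcodes in NEJ634, NEJ709 and NEJ723. An ambient share of 3.96% in NEJ687 and 15.4 to 18.8% in the other 4 pools was estimated from markers of other classes, and cells of clusters 12, 24 and 30 differ in depth, which limits what shallow cells can show of low genes such as Nr0b2.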

Other observations

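An unnamed cluster of NEJ634 with 3645 cells entered no class, because its hepatocyte-lineage score led the granulocyte precursor score by less than the limit. Its leading genes over the whole cluster were H19, Ngp, Afp and Hamp, and how far these lay in the same barcodes was not counted. It had Fabp6 at 89.0 CPM (82.9 to 95.4), Abcb11 at 124 CPM (117 to 131), Slc10a1 at 88.9 CPM (82.8 to 95.3) and Slco1b2 at 42.3 CPM (38.1 to 46.7). Its Fabp6 level overlapped that of cluster 12, and the other 3 genes were lower there than in cluster 12. Slco1a1 had 1 UMI. Another unnamed cluster, 422 cells all of NEJ634, scored highest for granulocyte precursor and next for hepatocyte-lineage markers. Its leading genes began with Elane, Mpo, Prtn3 and Ctsg and included Fabp6. At the higher resolution Fabp6 was a leading gene of a granulocyte precursor-like and of a hepatocyte-lineage-like cluster. Cells of NEJ634 outside the hepatocyte-lineage-like class held 1447 Fabp6 UMIs at a lower CPM, against 1094 in the class.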
